A study of Danio rerio with 2 samples.

Results

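Of 42 promoters found for genes of DNA replication, 39 (92.9%) had a called interval of open chromatin in the libraries of both genotypes. Of all gene promoters 85.8% did, and a promoter is listed only if a library had such an interval. At most of the promoters found, the *hos* mutant library gave somewhat more ATAC-seq signal than the sibling library, as it did at promoters in general. The gene set had 48 named members, from the origin recognition complex to the enzymes that join Okazaki fragments, together with nucleotide synthesis genes, E2F factors and a checkpoint kinase. It took in every accessible region that the deposited table assigned to a member by name. Of the 48 members, 44 were found by name, with 107 regions among the 41473 of the whole table. The region nearest the annotated gene start, if within 1000 bp, was taken as the promoter, which gave a promoter for 42 members, against 14547 genes in all. The rule names the members and uses no signal value.

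ATAC-seq measures open chromatin by letting a transposase cut and tag accessible DNA. Here 1 library came from hearts of heart of stone (*hos*) mutants and 1 from hearts of siblings labelled wt, at 96 hours post fertilization. Both groups were in the *hos*/Tg(*myl7*:GFP) background, in which the promoter of a heart muscle myosin gene drives a fluorescent reporter, and the protocol names 60 frozen hearts of mutants and siblings without saying how they were divided. By its title the series concerns Smarce1, which belongs to the chromatin remodeler SWI/SNF, and the proliferation of cardiomyocytes, so accessibility at genes that copy DNA bears on the question of the study. Since each genotype had 1 library, differences have no replicate check and no p-value and are differences between these libraries only.

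Replication starts at origins marked by the origin recognition complex, where CDC6 and CDT1 load the MCM2-7 helicase. CDC45, the GINS complex and MCM10 turn the loaded helicase on, and polymerase alpha-primase lays down primers. Polymerases epsilon and delta extend them, held on DNA by the sliding clamp PCNA, which the RFC complex loads. In dividing cells many of these genes are switched on together before S phase by E2F transcription factors. In the zebrafish heart, cardiomyocytes still divide during larval growth. ATAC-seq reads the openness of a promoter and not the level of its transcript.

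The labels give cardiomyocytes as the cell type and heart as the tissue, and whole hearts also hold other cells. Of 13 cardiomyocyte marker genes 9 had a promoter region, with signals from 12.1 to 143 in the sibling and from 32.7 to 181 in the mutant. All 9 were higher in the mutant (77.3% of all gene promoters were), with a median log2 ratio of 0.72. *myl7* itself stood at 143 and 181. Endocardial and endothelial markers (3 of 9 with a region) had a median of 0.67, epicardial and mesenchymal markers (5 of 8) -0.62 and skeletal muscle markers (3 of 6) -1.36, while neural (3 of 4) and epithelial (5 of 6) markers stood at 0.10 and 0.02 and 1 of 7 blood markers had a region. Intervals were called in the mutant alone at *vmhcl*, *tnni1b*, *nkx2.5*, *wt1a* and *hbbe1.1*. They were called in the sibling alone at *wt1b*, *rgs5a*, *mylpfa*, *tnnt3b* and *cdh1*. Such promoters are listed only through the library in which they are high, so the medians are a description only. Epicardial markers also split, with *wt1a* (0.48) and *col1a2* (0.79) higher in the mutant and 3 lower. Endocardial markers were uneven, at 0.84 (*cdh5*), 0.67 (*fli1a*) and 0.0012 (*nfatc1*). Neural markers ran from -0.28 (*sox10*) to 0.78 (*elavl3*) and epithelial ones from -0.64 (*cdh1*) to 0.45 (*krt8*). Skeletal muscle markers ran from -2.35 (*mylpfa*) to -0.02 (*actn3a*). After lowess centring on signal the medians were 0.67 for cardiomyocyte, 0.56 for endocardial, -0.11 for epicardial, -0.06 for skeletal muscle, -0.16 for neural and -0.24 for epithelial markers. The low epicardial and skeletal muscle medians thus lay near the trend of all regions of like signal. At weak signal that trend follows the same filter, since a region is listed only if called in at least 1 library. Summed over all regions, an estimated 4091458 tags fell in the sibling library and 4748101 in the mutant. Marker lists and totals moved together with genotype, and their part in the values below was not tested. More cells of a kind and more open chromatin per cell cannot be told apart in whole hearts.

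Signal is the average pileup of tags over a region, as deposited. A log2 ratio is log2 of mutant signal plus 1 over sibling signal plus 1, so positive values are higher in the mutant. A fold is the plain ratio of the signals, and the range beside it is an exact binomial 95% interval on estimated tags, which covers counting error only. Positions are those of the danRer11 build.

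In the sibling library the 42 replication promoters had signals from 16.9 to 150 with a median of 51.5, and in the mutant from 25.9 to 184 with a median of 65.3. All gene promoters had medians of 47.6 and 56.3. By median, replication promoters were thus somewhat stronger than promoters in general. In the sibling, 16 of the 42 lay above the 75th percentile of all gene promoters and 3 below the 25th. The ranges of the libraries overlapped from 25.9 to 150. Most were well above weak signal: 39 of 42 (92.9%) reached a larger signal of at least 39.3, the median over all regions, against 75.5% of all gene promoters. The authors' caller had marked an interval in both libraries at 39 promoters (92.9%), where 85.8% of all gene promoters had one. It marked one in the mutant alone at 3 promoters (7.14%, against 8.88% of all), those of *rfc1*, *mcm10* and *chek1*. At 0 of 42 was one marked in the sibling alone, which allows a share of up to 8.41% by the exact interval, against 5.35% of all.

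**Figure D1:**
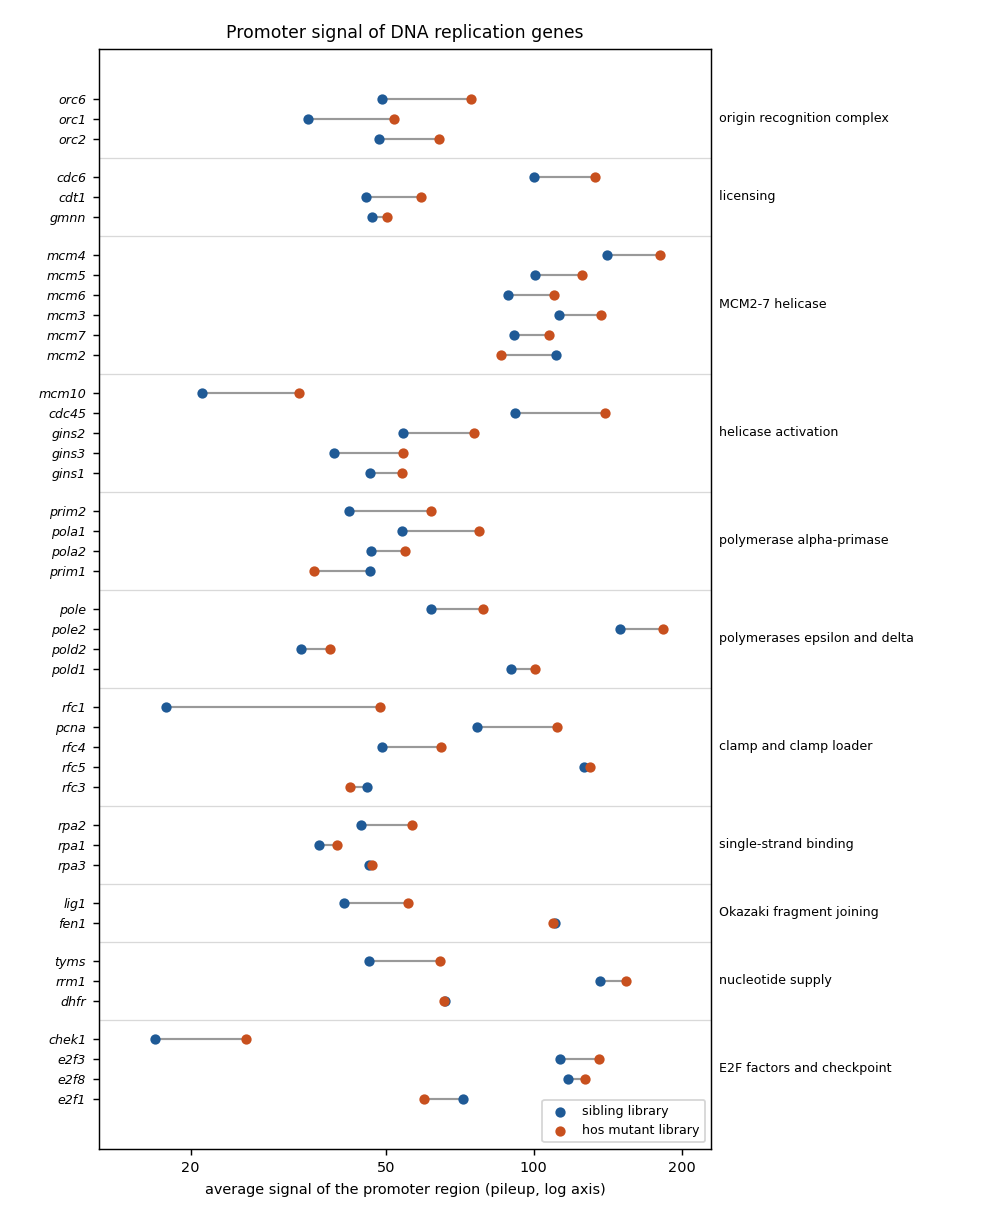
Average ATAC-seq signal (pileup, log axis) of the promoter region of 42 DNA replication genes in the sibling library (blue) and the *hos* mutant library (orange), 1 library each, grouped by role. The orange point lies to the right of the blue one for 36 genes, and the widest gap is that of *rfc1*, at 17.8 and 48.6.

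The strongest replication promoter was that of *pole2*, a subunit of the leading-strand polymerase epsilon, with sibling and mutant signals of 150 and 184. Its region also lay within 1000 bp of the start of *klhdc1*. *mcm4* of the MCM2-7 helicase followed with 141 and 181, and *rrm1*, the large subunit of ribonucleotide reductase, with 136 and 154. By the larger of both signals, the weakest was *chek1*, which encodes a checkpoint kinase, with 16.9 and 25.9. On that measure the next weakest were *mcm10* with 21.1 and 33.2 and *pold2*, a subunit of polymerase delta, with 33.5 and 38.4. All 6 were higher in the mutant (77.3% of all gene promoters were), but *chek1* and *mcm10* are listed only through a called interval in the mutant.

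Mutant signal exceeded sibling signal at 36 of the 42 replication promoters (85.7%, exact 95% interval 71.5 to 94.6), beside 77.3% of all gene promoters. Their median log2 ratio was 0.31 (order-statistic 95% interval 0.21 to 0.40), with quartiles of 0.13 and 0.47 and a range from -0.37 to 1.40. Over all gene promoters the median was 0.25, a shared offset of 1.19-fold whose source was not tested. When each member was set against the 500 promoters closest to it in mean signal, the median difference was 0.03 (-0.04 to 0.15), with 23 members above and 19 below. As a list, replication promoters therefore lay near the offset that all promoters shared, and the interval of the difference included 0. Those intervals treat genes as independent and leave out variation between libraries.

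Few members passed a fold limit. On the scale of signal plus 1, 5 promoters had a mutant signal at least 1.5-fold above that of the sibling (11.9%, 3.98 to 25.6), where 13.4% of all gene promoters did. These were *rfc1*, *mcm10*, *cdc45*, *orc6* and *chek1*. Of these, *rfc1*, *mcm10* and *chek1* had a called interval in the mutant alone, so they are listed only through the library in which they are high. Fold intervals of *mcm10* and *chek1* also include 1. Regions of *cdc45* and *orc6* are shared with the start of another gene. None was at least 1.5-fold lower, 0 of 42 against 3.03% of all. At 2-fold only *rfc1* remained, 1 of 42 beside 1.78% of all gene promoters, and 0 of 42 were 2-fold lower beside 0.784%. These shares were near the background in both directions. The counting interval of the fold lay above the fold of 1.19 at 4 promoters (*rfc1*, *cdc45*, *orc6* and *pcna*), beside 11.7% of all gene promoters, and below it at 4 (*mcm2*, *prim1*, *e2f1* and *fen1*), beside 12% of all.

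**Figure D2:**
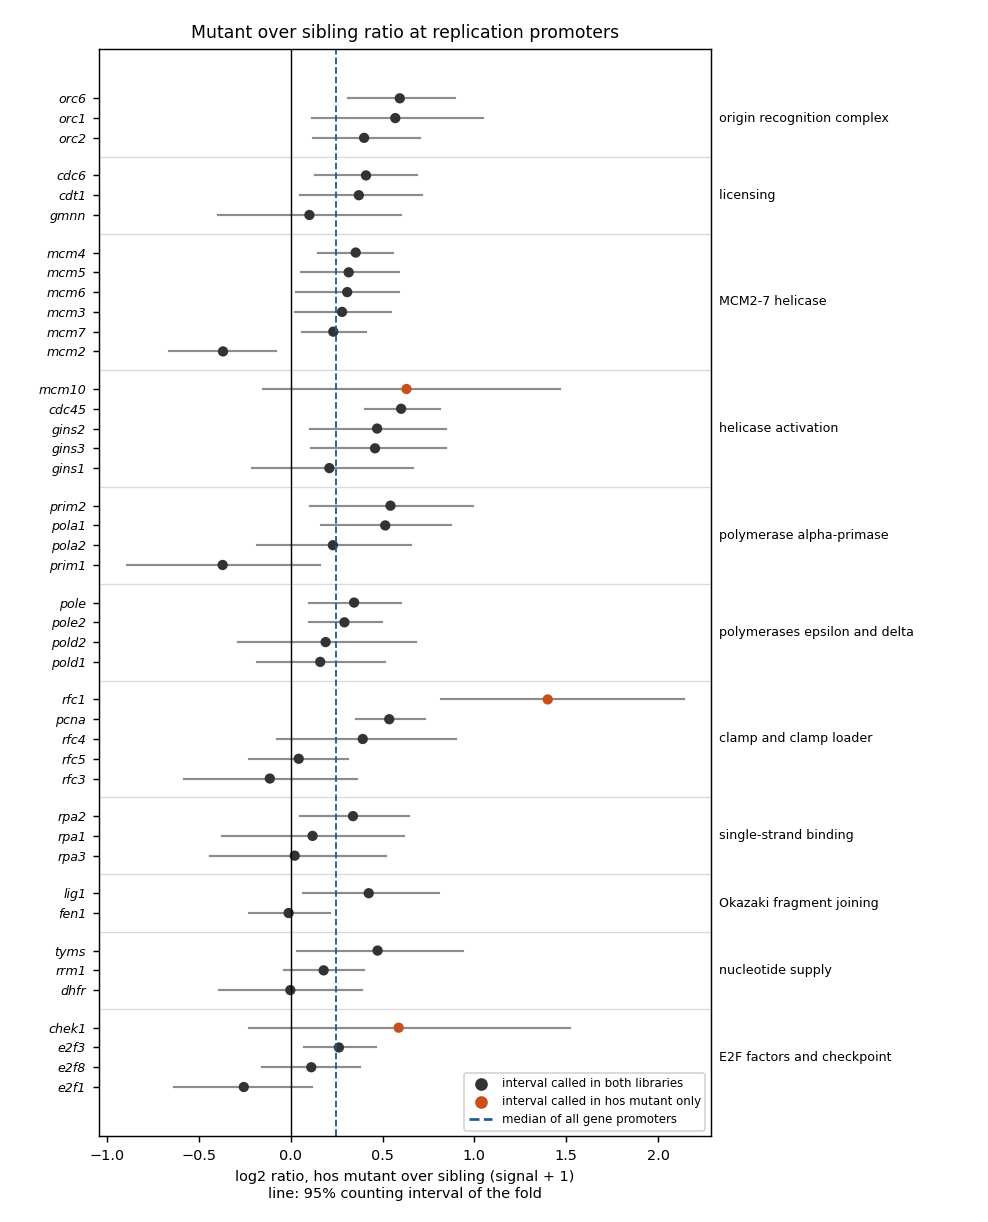
Log2 ratio of *hos* mutant over sibling promoter signal (signal plus 1) for 42 DNA replication genes by role, 1 library per genotype. Lines are 95% counting intervals of the fold, orange points have an interval called in the mutant alone, and the dashed line is the median of all gene promoters, 0.25. *rfc1* lies farthest to the right at 1.40, and *mcm2* and *prim1* farthest to the left at -0.37.

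The spread among members was moderate. The standard deviation of their log2 ratios was 0.31, against 0.20 from counting error alone, and the same values over all gene promoters were 0.39 and 0.23. Members with weak sibling signal had high ratios. The 3 members below the 25th percentile of promoter signal in the sibling were *chek1*, *rfc1* and *mcm10*, and all 3 were among the 5 highest ratios, from 0.59 to 1.40. All gene promoters that weak in the sibling had a median of 0.38, the highest of the 3 classes. The 16 members above the 75th percentile had ratios from -0.37 to 0.60 with a median of 0.27, close to the 0.25 of all promoters that strong. The 23 members between had a median of 0.35, and all promoters there 0.20. Since sibling signal also enters the ratio, low sibling signal and a high ratio are not independent. In addition, *chek1*, *rfc1* and *mcm10* had a called interval in the mutant alone. They are in the table only through the library in which they are high, so their high ratios are a description only. The 0.38 of all promoters that weak comes from the same table and has the same limit.

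**Figure D3:**
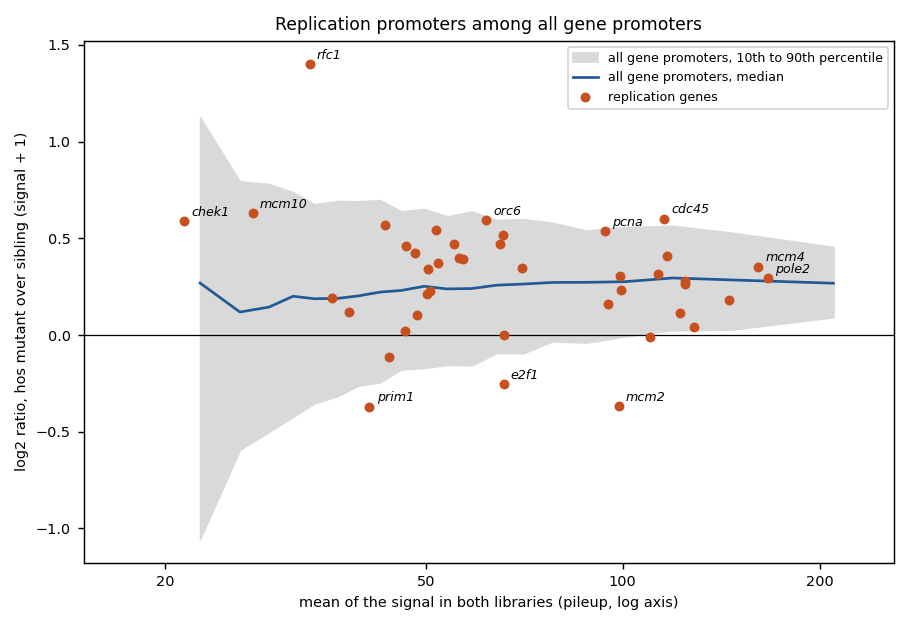
Log2 ratio of *hos* mutant over sibling promoter signal (signal plus 1) against the mean signal of both libraries (pileup, log axis). Orange points are 42 DNA replication genes, the line is the median and the band the 10th to 90th percentile of 14547 gene promoters in 20 bins of signal. Most members lie in the band. Above it are *rfc1*, at 1.40, and *cdc45*, and below it are *mcm2*, at -0.37, *prim1*, *e2f1* and *fen1*.

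Origin recognition complex genes were the highest role by median, 0.57 over 3 promoters. *orc6* (gene 324256, chromosome 7, 41811880 to 41812627), the smallest subunit, had sibling and mutant signals of 49.1 and 74.6, a fold of 1.52 (1.24 to 1.86). *orc1*, an ATPase subunit, had 34.7 and 52.0, a log2 ratio of 0.57. *orc2* was lowest of the role with 48.4 and 64.2 and a log2 ratio of 0.40. All 3 were higher in the mutant (77.3% of all gene promoters were) and above the promoter median. Regions of both *orc6* and *orc1* also served a neighbour's start, *vps35* at *orc6* and *prpf38a* at *orc1*, so their signal cannot be assigned to either gene. *orc5* had no region within 1000 bp, and its regions in the table lay 15408 and 40532 bp from its start, with log2 ratios of 0.14 and 0.20.

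Licensing genes gave a median of 0.37. *cdc6*, which recruits the helicase together with CDT1, had sibling and mutant signals of 100 and 133, a log2 ratio of 0.41. *cdt1* had a log2 ratio of 0.37. *gmnn*, whose product geminin binds CDT1 and blocks a further round of licensing, was the lowest with 46.8 and 50.3, a fold of 1.07 (0.76 to 1.52). The activator genes were thus above the promoter median and the inhibitor gene below it, but the interval of *gmnn* spans the folds of both others.

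MCM2-7 genes encode the 6 subunits of one ring, and 5 of their promoters had ratios near those of promoters of like signal. These 5 lay at percentiles 44 (*mcm7*) to 69 (*mcm4*) among the 500 promoters of closest signal. *mcm3*, *mcm4*, *mcm5*, *mcm6* and *mcm7* had log2 ratios between 0.23 (*mcm7*) and 0.35 (*mcm4*), from sibling signals of 88.5 to 141 and mutant signals of 107 to 181. *mcm2* (gene 192338, chromosome 22, 5654640 to 5655102) went the other way, with sibling and mutant signals of 111 and 85.9, 1.29-fold lower (1.06 to 1.58). Its log2 ratio of -0.37 was at percentile 0.2 among the 500 promoters of closest signal. Its log2 fold minus that of another ring gene ran from -0.61 (*mcm7*) to -0.73 (*mcm4*). That comparison was picked after *mcm2* was seen to be among the lowest members, so the gaps are a description only. In the sibling, *mcm2* ranked behind *mcm4* and *mcm3* among the ring genes, and in the mutant it was the weakest.

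Helicase activation genes had a median of 0.47, with all 5 higher in the mutant (77.3% of all gene promoters were) and 4 above the promoter median. *cdc45* (gene 406695, chromosome 8, 4760591 to 4761390), which joins MCM2-7 and GINS in the active helicase, had sibling and mutant signals of 91.6 and 139, a fold of 1.52 (1.32 to 1.76). Its region lay 299 bp upstream of its own start and 281 bp upstream of that of *ufd1l*, so it is shared. *mcm10* (gene 553396, chromosome 4, 7869686 to 7869927), which acts when the helicase starts to unwind, had signals of 21.1 and 33.2, but with 23 and 36 estimated tags the interval of the 1.57-fold difference was 0.90 to 2.77. With a called interval in the mutant alone, *mcm10* is listed only through the library in which it is high, and its place in the role is a description. *gins1* was lowest of the role with 46.5 and 53.9, a log2 ratio of 0.21, while its partners *gins2* and *gins3* had 0.47 and 0.46. A second region of *gins1*, 456 bp upstream of its start, was far weaker in the sibling (13.5) than in the mutant (38.3), with a log2 ratio of 1.44. That region had a called interval in the mutant alone, so it too is listed only through the library in which it is high.

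Polymerase alpha-primase makes the RNA-DNA primer, and its primase pair split. *prim1* (gene 30440, chromosome 23, 17839067 to 17839416), the catalytic primase subunit, had sibling and mutant signals of 46.4 and 35.6, 1.30-fold lower (0.89 to 1.86). *prim2* (gene 407653, chromosome 13, 23612162 to 23612556), the regulatory primase subunit, had 42.0 and 61.7, 1.47-fold higher (1.08 to 1.99). The log2 fold of *prim1* minus that of *prim2* was -0.93, again a pair picked after the values were seen. *pola1*, the catalytic polymerase subunit, had 0.51 and *pola2* 0.23 on the log2 ratio. The *pola1* region lay 965 bp upstream of its start and 209 bp upstream of the start of *rrs1*. That of *pola2* lay 53 bp upstream of its start and 33 bp upstream of the start of *dimt1l*.

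Polymerase epsilon and delta genes lay in a narrow band, from 0.16 to 0.35 with a median of 0.24. *pole*, the catalytic subunit of polymerase epsilon, was highest with sibling and mutant signals of 61.7 and 78.7. The *pole* region lay 409 bp upstream of its own start and 35 bp upstream of that of *lztr1*, so it is shared. *pold1*, the catalytic subunit of polymerase delta, was lowest with 89.7 and 100.4, a fold of 1.12 (0.88 to 1.43). All 4 were higher in the mutant (77.3% of all gene promoters were), and 2 were above the promoter median.

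Clamp and clamp loader genes had the widest range of log2 ratios of the roles, but only through *rfc1* at 1.40, whose region was called in the mutant alone. The others ran from -0.11 (*rfc3*) to 0.54 (*pcna*), where polymerase alpha-primase genes ran from -0.37 to 0.54. *pcna* (gene 30678, chromosome 10, 40825910 to 40827088), the sliding clamp that holds the polymerases on DNA, had sibling and mutant signals of 76.5 and 111, a fold of 1.46 (1.28 to 1.66). *rfc1* (gene 100037336, chromosome 1, 23268365 to 23268721), the large subunit of the clamp loader, had signals of 17.8 (sibling) and 48.6 (mutant), a fold of 2.73 (1.76 to 4.40). That ratio was at percentile 99.4 among the promoters of closest signal and rests on 28 and 77 estimated tags. *rfc3* was lowest of the role with 45.8 and 42.2, a fold of 0.92 (0.67 to 1.28). *rfc5* had 127 and 130, a log2 ratio of 0.04, and *rfc4* had 49.1 and 64.8, a log2 ratio of 0.39. With a called interval in the mutant alone, the *rfc1* region is in the table only through the library in which it is high, and its fold is a description. In the sibling the *rfc1* promoter was below the other loader genes, and in the mutant it stood between *rfc3* and *rfc4*.

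Single-strand binding genes, which encode the trimer RPA that coats unwound DNA, had the lowest median, 0.12. *rpa2* was highest with sibling and mutant signals of 44.4 and 56.4, a log2 ratio of 0.34, but on peak signal in place of average signal its log2 ratio was -0.10. *rpa3* was lowest with 46.2 and 46.9, and *rpa1* had 36.5 and 39.8. Another start lay within 1000 bp of the *rpa2* region (*ube3d*) and of the *rpa3* region (si:dkey-119m17.2). Folds of *rpa1* (0.77 to 1.54) and *rpa3* (0.74 to 1.43) have intervals that include 1.

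Okazaki fragment genes were *fen1*, the flap nuclease, and *lig1*, the ligase. *fen1* had a signal of 110 in both libraries, a fold of 0.99 (0.85 to 1.16), at a region shared with the start of *tm9sf1*. *lig1* had signals of 41.0 (sibling) and 55.4 (mutant), a fold of 1.35 (1.05 to 1.75). The ligase gene was above the promoter median and the nuclease gene below it.

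Nucleotide supply genes had a median of 0.18. *tyms*, thymidylate synthase, was highest with sibling and mutant signals of 46.1 and 64.4, a fold of 1.40 (1.02 to 1.91). *dhfr*, dihydrofolate reductase, which regenerates the folate that thymidylate synthase uses up, had 65.8 in both. For *rrm2*, the small subunit of ribonucleotide reductase, the closest regions lay 2265 and 3150 bp upstream, with log2 ratios of 0.13 and 0.59. Of the 3 genes with a promoter region, *tyms* alone was above the promoter median.

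E2F factors and *chek1* had a median of 0.19. *e2f1* (gene 101885420, chromosome 23, 43487490 to 43487905), an activator of replication genes in mammals, was the lowest member after *prim1* and *mcm2*, with sibling and mutant signals of 71.6 and 59.8, a fold of 0.84 (0.64 to 1.08). *e2f3*, another activator in mammals, had 113 and 136, and *e2f8*, a repressor in mammals, had 118 and 127. Their log2 ratios were 0.26 and 0.11, against -0.26 for *e2f1*. *chek1* (gene 393162, chromosome 21, 22558142 to 22558412) was highest of the role with a log2 ratio of 0.59, but its 20 and 31 estimated tags leave a fold interval of 0.86 to 2.87, and the start of *cfap53* lies within 1000 bp of its region. That region had a called interval in the mutant alone, so it is listed only through the library in which it is high.

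Ordered by median, the roles ran from origin recognition and helicase activation down to nucleotide supply and single-strand binding. After lowess centring the lowest medians were those of nucleotide supply (-0.10) and E2F factors and *chek1* (-0.09), with single-strand binding at -0.01, so the bottom of the order depended on the scaling. With 2 to 6 promoters a role, the ranges of most roles overlapped. Origin recognition genes (0.40 to 0.59) did not overlap those of MCM2-7 (-0.37 to 0.35), polymerases epsilon and delta (0.16 to 0.35) or single-strand binding (0.02 to 0.34). That contrast was picked after the values were seen. The *orc1*, *orc6* and *cdc45* regions are shared with another start. *mcm10* of helicase activation is listed only through its called interval in the mutant.

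CpG islands and gene starts are annotation, while the centre and length of a region follow from the called intervals. At replication genes 3 of 42 (7.14%, exact 95% interval 1.498 to 19.5), those of *cdt1*, *gins3* and *mcm7*, overlapped a CpG island in the deposited annotation, against 23.2% of all gene promoters and 8 of 45 (17.8%, 8.002 to 32.1) in the further list of replication genes described last. The region centre lay upstream of the gene start at 28 of 42 (66.7%, 50.5 to 80.4), against 37.5% of all. A start of a second gene lay within 1000 bp of the region at 11 of 42 (26.2%, 13.9 to 42.0), against 14.4%. Neither sharing nor CpG islands went with a large difference in ratio. The 11 shared replication promoters had a median of 0.35 and the 31 others 0.28, and over all gene promoters these medians were 0.27 and 0.24. The 3 replication promoters with a CpG island had a median of 0.37 and the 39 without 0.31, and over all gene promoters both medians were 0.25. Region lengths were similar, with medians of 442.5 bp for members and 455 bp for all gene promoters.

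A second region within 1000 bp of the start was listed for 4 members, at log2 ratios of 1.44 (*gins1*), 0.85 (*rpa3*), 0.51 (*pole2*) and 0.12 (*e2f8*), where the nearest regions had 0.21, 0.02, 0.29 and 0.11. Those of *rpa3* and *pole2* lay nearer a neighbour's start, 101 bp past that of si:dkey-119m17.2 and 81 bp past that of *klhdc1*. Their signal cannot be assigned to either gene. The *gins1* and *rpa3* regions had a called interval in the mutant alone, which is how they entered the table, and the *e2f8* values differ by less than counting error.

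Regions away from the start gave values like the promoters. The 44 measured genes had from 1 to 7 regions each (median 2), and 12 had 1 region. Over 61 regions more than 1000 bp from the start the median log2 ratio was 0.29, and over all 32094 gene-assigned regions that far it was 0.15. Upstream regions (27) had a median of 0.35, regions within the gene (13) 0.14 and downstream regions (21) 0.29, where all gene-assigned regions had 0.23, 0.03 and 0.23. Of the 61, 28 lay at the start of another gene, with a median of 0.35, and the other 33 had 0.24 and a wider spread (SD 0.59 against 0.33). In 28 genes with both kinds of region, the promoter ratio was above the median of the distant regions in 14 and below it in 14.

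**Figure D4:**
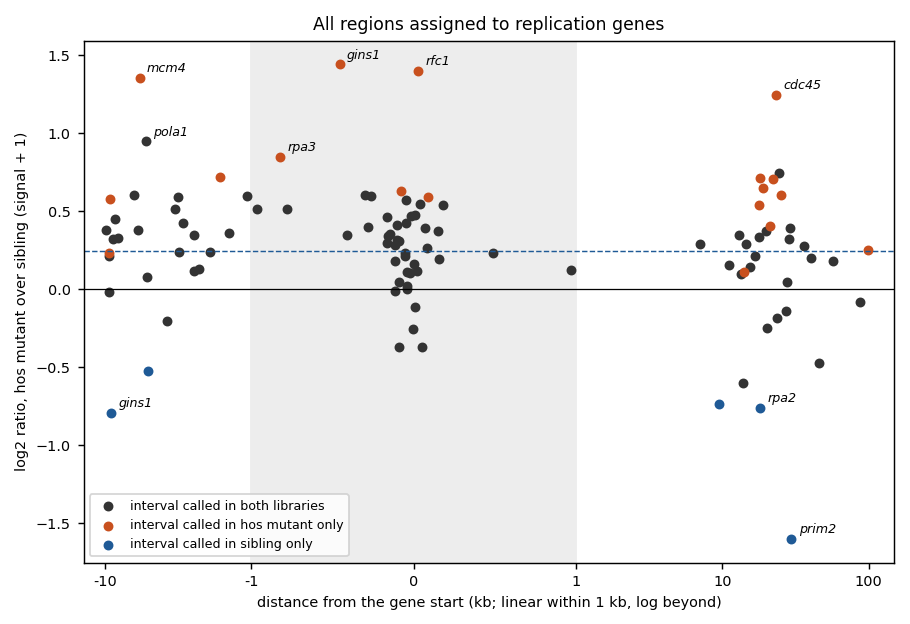
Log2 ratio of *hos* mutant over sibling signal (signal plus 1) for all 107 regions assigned to DNA replication genes, against distance from the gene start in kb (linear within 1 kb, shaded, and log beyond). Colours give the library with a called interval, and the dashed line is the median of all gene promoters, 0.25. Values near the start cluster, apart from *rfc1* and the second region of *gins1* at the top, and the lowest value is a region of *prim2* at -1.60.

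A called interval was present in both libraries at 43 of the 61 distant regions. It was present in the mutant alone at 13 (21.3%, 11.9 to 33.7), beside 17.8% of all such regions, and in the sibling alone at 5 (8.20%, 2.72 to 18.1), beside 19.3%. Regions at least 2-fold higher numbered 2 of 61 beside 3.3% of all, and 2-fold lower ones 1 of 61 beside 4.86%. The share with an interval in the sibling alone was below that of all such regions, but the kinds of region differed. Of the 61, 13 lay within the member gene and 28 at the start of another gene, while 17723 of all 32094 lay within an assigned gene. Shares by kind of region were not compared, and regions of one gene are not independent.

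Highest among distant regions was one 5784 bp upstream of *mcm4*, with sibling and mutant signals of 29.1 and 76.0, a fold of 2.61 (1.78 to 3.99). A region 23341 bp past the start of *cdc45* had 13.2 and 32.7, a fold of 2.48 (1.39 to 4.38), and one 5257 bp upstream of *pola1* had 37.8 and 73.8, a fold of 1.95 (1.52 to 2.56). The *mcm4* and *cdc45* regions had a called interval in the mutant alone. Lowest was a region 29620 bp past the start of *prim2*, with sibling and mutant signals of 27.1 and 8.29, 3.28-fold lower (1.43 to 8.31). Regions 9082 bp upstream of *gins1* (37.1 and 21.0) and 18066 bp past the start of *rpa2* (29.7 and 17.1) were 1.77-fold (1.14 to 2.84) and 1.73-fold lower (0.93 to 3.14). These 3 had an interval in the sibling alone. Regions called in 1 library are listed only through the library in which they are high. All regions named here were also picked as extremes of the 61, so their folds are a description only. After lowess centring the *prim2* region stood at -0.25 in place of -1.60, nearer the trend of regions of like signal. At weak signal that trend follows the filter by called intervals. The lowest distant regions were then those of *gins1* (-0.84) and *orc2* (-0.82). The promoters of *prim2*, *gins1* and *rpa2* had folds of 1.47, 1.16 (0.86 to 1.59, which includes 1) and 1.27.

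A further list of 54 replication genes outside the member set gave similar values. Of 48 found by name 45 had a promoter region, with a median log2 ratio of 0.27 and 35 higher in the mutant (77.3% of all gene promoters were). At least 1.5-fold higher were 9 (13.4% of all) and lower 1 (3.03% of all), and 0 passed 2-fold higher (1.78%) or lower (0.784%). The highest were *cdc7*, the kinase that triggers origin firing, with sibling and mutant signals of 19.3 and 38.3, *supt16h*, a subunit of the histone chaperone FACT, with 26.6 and 49.8, and *asf1bb*, a histone chaperone gene, with 53.9 and 92.8. The lowest were *topbp1*, which helps load CDC45, with 25.9 and 13.9 (fold 0.54, 0.27 to 1.01), *dctd*, a deaminase in thymidylate supply, with 45.0 and 30.5, and *asf1ba*, with 135 and 103. *cdc7* had a called interval in the mutant alone and *topbp1* in the sibling alone. Each is thus listed only through the library in which it is high, and its fold is a description. *topbp1* stood at -0.85 without rescaling and -0.0022 after lowess centring, where *dctd* was lowest at -0.68. The *asf1b* pair went opposite ways, at log2 ratios of 0.77 and -0.39.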

How the data were processed

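ATAC-seq was done on 1 library of *hos* mutant hearts and 1 of sibling hearts, grouped by the genotype labels. MACS2 2.1.0 and danRer11 are named in the submitters' processing notes. Not given in the sources used here: aligner, duplicate handling, transposase shift and scaling. The authors deposited, for merged regions, an average and a peak signal per library, marks for called intervals and other annotation such as gene names, distances and CpG islands, and a gene table of peak signal. Their log2 ratio and shrunken fold change columns hold their own comparison and were not used, and 0 columns of library values were left unused.

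Log2 ratios used a pseudocount of 1 and no further scaling. Region signal and length gave estimated tags. Fold intervals are exact binomial and cover counting error at most. If duplicate tags, which are not independent molecules, were kept, the intervals are too narrow. If the libraries were scaled, the estimated tags are not plain counts. Names standing for several genes (47) were left out. Members, roles and lists were chosen with earlier results of these data known. Values are given for the 6 highest and 6 lowest promoters, the 3 strongest and weakest, the ends of each role, promoters called in 1 library, and the 3 highest and lowest regions over 1000 bp from a start and genes of the further list; others were named after their values were seen. *orc3*, *orc4* and *rfc2* are not analysed here. Alternatives covered scaling (median or lowess centring, span 0.2), pseudocounts, peak signal, promoter choice, a signal floor, shared starts, the gene table and the fold limit. A planned motif count was not run because no sequence was used. Steps were tested on simulated data. Software was pandas 2.3.3 and numpy 2.4.6 under Python 3.11.15, with scipy 1.17.1 for intervals, statsmodels 0.14.6 for lowess and matplotlib 3.10.9 for plots.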

Additional observations from a re-analysis of the deposited data

How the results depend on the processing

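Rescaling moved the medians, by construction. Centring on the median of all gene promoters took the median log2 ratio of replication promoters from 0.31 to 0.0653, that of all their regions to 0.0613 and that of the further replication genes to 0.0235, and lowess centring gave 0.0556, 0.104 and 0.0452. The count at least 1.5-fold higher, 5 (13.4% of all gene promoters), became 1 with the promoter median centred (4.28% of all) or with a pseudocount of 5 (10.4%), 3 with lowess centring (7.9%) or a signal floor (12.5%), 2 without regions shared with another start (13.4%) and 20 at a laxer fold limit (40.1%). The count lower, 0 (3.03% of all), became 2 with the promoter median centred (7.17%), 1 with lowess centring (3.53%) and 2 at the laxer limit (4.76% of members, 7.53% of all). The shares of all promoters moved with the scaling and the limit too. Under the other alternatives the higher count was 4 or 5 and the lower count 0. *rfc1* was highest, and *prim1* or *mcm2* lowest, under all 10 alternatives that were planned. The *rfc1* region is listed only through its called interval in the mutant. No alternative removes that filter, so the rank of *rfc1* is a description only. Among the alternatives, the gene table gives a mean of peak signals per gene and not a promoter ratio. Taking the strongest region within 1000 bp or the nearest within 2000 bp left the member values unchanged, so these settings are no separate check. With *e2f2* added through its gene ID, chosen after seeing the data, the median stayed at 0.31. No paired analysis was possible because each genotype has 1 library, and for the same reason no library could be left out. Depth limits *chek1*, *mcm10* and *rfc1*, whose sibling promoters hold 20 to 28 estimated tags.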

Other observations

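*e2f2*, an E2F factor gene, was not found by name. Its gene ID, 568846, stands in the table under the name si:ch211-160f23.5, and RefSeq (GRCz12tu) gives that ID the symbol *e2f2*. The region 64 bp upstream of the start had sibling and mutant signals of 75.8 and 85.6, a log2 ratio of 0.17. A region 22237 bp past the start had 21.3 and 55.8, a fold of 2.62 (1.81 to 3.92, exact binomial, counting error only), with a called interval in the mutant alone. It is thus listed only through the library in which it is high. It was also picked as the highest region of this gene, at a log2 ratio of 1.35, and the others ran from -0.16 to 0.40. These values were not counted among the members.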
